A study of Mus musculus with 23 samples.

Results

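The 9 macrophage marker genes Cd68, Csf1r, Lyz2, Mrc1, Cd14, C1qa, C1qb, C1qc and Itgam were followed in the brown adipose tissue (BAT) of 23 mice. They were taken by symbol from a table of normalized counts for 14651 genes, which held a row for each of the 9. The rule that chose them used symbols and no measured value, but earlier results of these data were known at the time.

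The study asked what loss of Mcu, which encodes the pore of the mitochondrial calcium uniporter, does to brown fat at room temperature (RT) and in the cold. RNA from whole BAT of male C57BL/6 mice, 8 to 12 weeks of age, was sequenced. Control mice carried 2 floxed Mcu alleles without Cre (genotype Mcu[fl/fl]), and BAT-Mcu-KO mice carried the same alleles with a Cre driven by the Ucp1 promoter, which is active in thermogenic adipocytes. These mice are called knockouts from here on. At RT there were 6 mice of each genotype, and 5 controls and 6 knockouts spent 6 h at 4°C. Mice in the cold were housed singly in cages without bedding and, unless the study said otherwise, without food. Outside such experiments the study kept its mice in groups at RT with chow. In other comparisons of 6 h at RT and 4°C it fasted the RT mice as well. Whether the sequenced RT mice had food or were housed singly is not stated. The effects of cold, lack of food and single housing can therefore not be told apart. Mice are numbered within their group as in the labels.

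Macrophages of adipose tissue take up dying cells, lipid and debris, and they sit among the adipocytes, vessels and nerves of brown fat. Their survival depends on CSF1R, the receptor for the cytokines CSF1 and IL-34, and their identity on the transcription factor PU.1. Among the markers followed here, CD68 is a glycoprotein of late endosomes and lysosomes, lysozyme (Lyz2) breaks down bacterial cell walls, and the mannose receptor CD206 (Mrc1) takes up glycoproteins and is high in resident tissue macrophages. CD14 hands lipopolysaccharide to TLR4, and Itgam encodes CD11b, the alpha chain of the integrin Mac-1 that is shared with monocytes and neutrophils. C1qa, C1qb and C1qc encode the A, B and C chains of C1q, the recognition molecule of the classical complement pathway, which in most tissues is made chiefly by macrophages.

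The C1q genes lie side by side on chromosome 4 of GRCm38, all on the minus strand, in the order C1qb (chr4:136880129-136886187), C1qc (chr4:136889804-136893065) and C1qa (chr4:136895917-136898803). The cluster spans 18675 bp, with gaps of 3616 and 2851 bp between the genes. Of the other markers, Lyz2 lies at chr10:117277331-117282321, Cd68 at chr11:69664213-69666153, Mrc1 at chr2:14229392-14332057 and Itgam at chr7:128062640-128118491. Reads were counted without regard to strand, and 3 of the 9 markers overlap other annotated genes, Csf1r with Mir6983 and Hmgxb3, Mrc1 with Mir511 and Itgam with Gm49368. Reads from the overlapped stretches cannot be told apart.

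The sequences just upstream of C1qb, C1qc and Lyz2 are shown because Lyz2 and C1qb have the highest levels per length among the markers and because the neighbouring C1q genes carry the clearest changes with cold. They come from the 250 bases before the RefSeq start (GRCm38.p6) and run 5′ to 3′ on the minus strand. The GENCODE genes of C1qc and Lyz2 reach 151 and 49 bases beyond that start, and these bases are not printed. The printed stretches are chr4:136886201-136886450 for C1qb, chr4:136893066-136893164 for C1qc and chr10:117282322-117282522 for Lyz2. Capitals mark the letters GAGGAA or their reverse complement TTCCTC, the core that PU.1 binds.
C1qb: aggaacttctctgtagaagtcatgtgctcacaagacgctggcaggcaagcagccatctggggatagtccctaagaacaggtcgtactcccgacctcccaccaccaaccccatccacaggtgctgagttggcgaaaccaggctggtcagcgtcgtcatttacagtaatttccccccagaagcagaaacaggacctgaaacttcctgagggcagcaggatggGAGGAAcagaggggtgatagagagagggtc
C1qc: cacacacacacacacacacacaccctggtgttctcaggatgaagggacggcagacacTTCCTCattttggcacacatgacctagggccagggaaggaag
Lyz2: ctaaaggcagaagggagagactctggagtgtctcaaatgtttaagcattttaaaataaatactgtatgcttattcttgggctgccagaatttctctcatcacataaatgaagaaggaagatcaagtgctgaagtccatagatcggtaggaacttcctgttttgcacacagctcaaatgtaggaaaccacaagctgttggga
Windows of 250 bases were matched for 6 of the 9 markers (Cd68, Lyz2, Mrc1, C1qb, C1qc and Itgam). GAGGAA on either strand was found in 5 of the 6, against 23.3% of 32851 windows of the same length. In C1qb these letters start 30 bases before the start and in C1qc 193 bases before it, and the Lyz2 window does not hold them. A match describes letters and not a bound site. Other forms of the PU.1 site were not searched, so a window without these letters may still hold one.

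Each library held 7129271 to 21006347 reads on genes, and 23.1 to 38.1% of them came from mitochondrial genes. Mcu itself had a mean normalized count of 109.5 ± 22.5 (SD, n = 6) in controls at RT and 35.1 ± 10.03 (SD, n = 6) in knockouts at RT, and 107 ± 26.8 (SD, n = 5) and 33.9 ± 6.60 (SD, n = 6) at 4°C. Ucp1, the uncoupling protein that defines brown adipocytes, lay between 50590.2 and 198043 in every mouse. Of 19 other transcripts of macrophages in general, 15 were measured, among them Adgre1, which encodes F4/80, at a mean of 38.1 to 42.0 per group, and Tyrobp, Laptm5 and Ctss. The other 4 (Aif1, Cx3cr1, Fcgr1 and Trem2) were not analysed here. In whole tissue a lower number of macrophages and less RNA per macrophage cannot be told apart.

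The markers covered a wide range of levels. Per kilobase of exon, and as a mean over all 23 mice, Lyz2 stood highest at 248 normalized counts, followed by C1qb at 202 and C1qa at 152. Cd14 followed at 51.4, Cd68 at 36.7, C1qc at 33.0, Csf1r at 28.5 and Mrc1 at 20.9. Itgam was lowest at 3.97. This order was largely kept from mouse to mouse: C1qb stood above C1qa, C1qa above Cd14 and Mrc1 above Itgam in 23 of 23 mice, Csf1r above Mrc1 in 21, Lyz2 above C1qb in 20 and Cd14 above Cd68 in 18. The neighbours Cd68 and C1qc (11 of 23 mice) and C1qc and Csf1r (14 of 23) did not separate. Among the chains of C1q, the C1qc transcript was the lowest per length, and the C1qa to C1qb ratio of normalized counts within a mouse was 0.729 (0.605 to 0.952), a geometric mean with its range.

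The number of reads behind each value sets its precision. Lyz2 rested on 137 to 690 reads per mouse, C1qb on 86 to 537, C1qa on 80 to 351, Csf1r on 71 to 337 and Mrc1 on 59 to 345. Cd14 rested on 33 to 183 reads, C1qc on 32 to 187 and Cd68 on 11 to 140. Itgam was thinly covered, with 2 to 74 reads, and control mouse 5 at RT had 2 reads, which is under a floor of 3 reads.

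Cold was the first comparison. The C1q genes were higher at 4°C than at RT in control mice, by 1.51- to 1.60-fold, and C1qa and C1qb were higher in knockouts as well. C1qa had a normalized count of 106 to 166 (median 119) in RT controls and of 216, 173, 166, 143 and 265 in cold controls 1 to 5. In knockouts it was 96.5 to 159 (median 131) at RT and 171 to 231 (median 191) at 4°C. Thus 3 of 5 cold controls stood above every RT control, and all 6 cold knockouts stood above all 6 at RT, so that these groups did not overlap. Among the 9 markers and the 4 pairwise comparisons this was the only case without overlap. Of all genes, 24.2% did not overlap in the same comparison, 25.2% by cold in controls, 0.218% by genotype at RT and 0.683% by genotype at 4°C. On the scale of log2(normalized count + 1), on which all differences below are given, the change of C1qa was 0.61 (95% confidence interval 0.29 to 0.93, adjusted p = 0.00245, limma) in controls and 0.62 (0.31 to 0.93, adjusted p = 0.00151, limma) in knockouts.

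C1qb followed the same course. Its normalized count was 127 to 221 (median 180.2) in RT controls and 358, 208, 246, 216 and 304 in the 5 cold controls, of which 3 stood above every RT control. It was 104 to 229 (median 159.8) in knockouts at RT and 211 to 353 (median 277) at 4°C, where 5 of 6 mice stood above all at RT. The changes by cold were 0.59 (0.22 to 0.96, adjusted p = 0.00859, limma) and 0.81 (0.46 to 1.16, adjusted p = 3.99e-04, limma). C1qc was measured at 42.5 to 61.3 (median 46.6) in RT controls and at 76.9, 60.7, 75.9, 62.4 and 149.9 in cold controls, the last value, that of mouse 5, lying far above the rest. In knockouts C1qc was 43.4 to 62.7 (median 52.6) at RT and 49.6 to 91.4 (median 72.8) at 4°C. The change passed the test in controls (0.68, 0.25 to 1.10, adjusted p = 0.00943, limma) and did not in knockouts (0.39, -0.023 to 0.79, adjusted p = 0.121, limma). Without control mouse 5 at 4°C, C1qc in controls changed by 0.45 (adjusted p = 0.0520, limma).

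**Figure D1:**
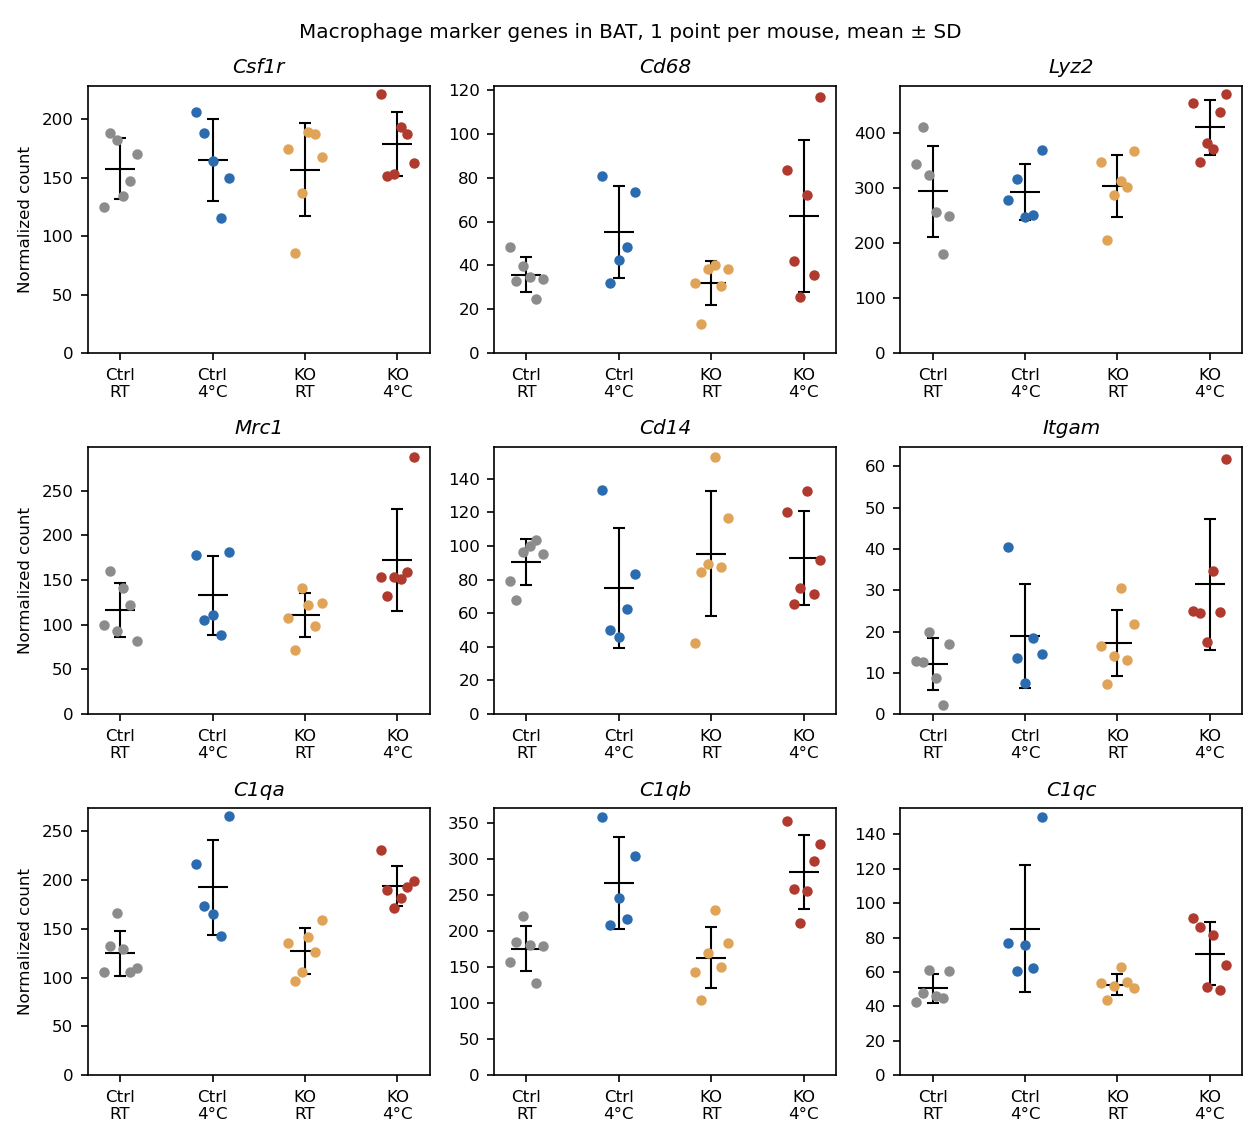
Normalized counts of the 9 macrophage marker genes (vertical axes, from 0) in control (Ctrl) and BAT-Mcu-KO (KO) mice at RT and 4°C, with 1 point per mouse and black bars for the mean ± SD. C1qa in cold KO mice (171 to 231) lies wholly above C1qa in RT KO mice (96.5 to 159), and single high mice stand out for C1qc in cold controls and for Mrc1 in cold KO mice.

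Csf1r (chr18:61100598-61132149), the receptor that defines the lineage, did not pass the test. It was 125 to 188 (median 158) in RT controls, 206, 188, 164, 115 and 149.9 in cold controls, 85.7 to 189 (median 171) in RT knockouts and 152 to 221 (median 175) in cold knockouts, and the groups overlapped throughout. Its change by cold was 0.053 (-0.32 to 0.43, adjusted p = 0.834, limma) in controls and 0.22 (-0.14 to 0.58, adjusted p = 0.329, limma) in knockouts, so that rises up to these upper bounds could not be told from none. Within a mouse, the ratio of C1qb to Csf1r normalized counts had a geometric mean (with its range) of 1.11 (0.866 to 1.35) in RT controls, 1.61 (1.10 to 2.03) in cold controls, 1.04 (0.801 to 1.24) in RT knockouts and 1.58 (1.32 to 1.97) in cold knockouts. The ratio of C1qa to Csf1r was 0.790 (0.643 to 0.967), 1.16 (0.919 to 1.77), 0.828 (0.677 to 1.13) and 1.09 (0.943 to 1.25) in the same order. These ratios were formed after the values of single genes were seen and were not tested.

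**Figure D2:**
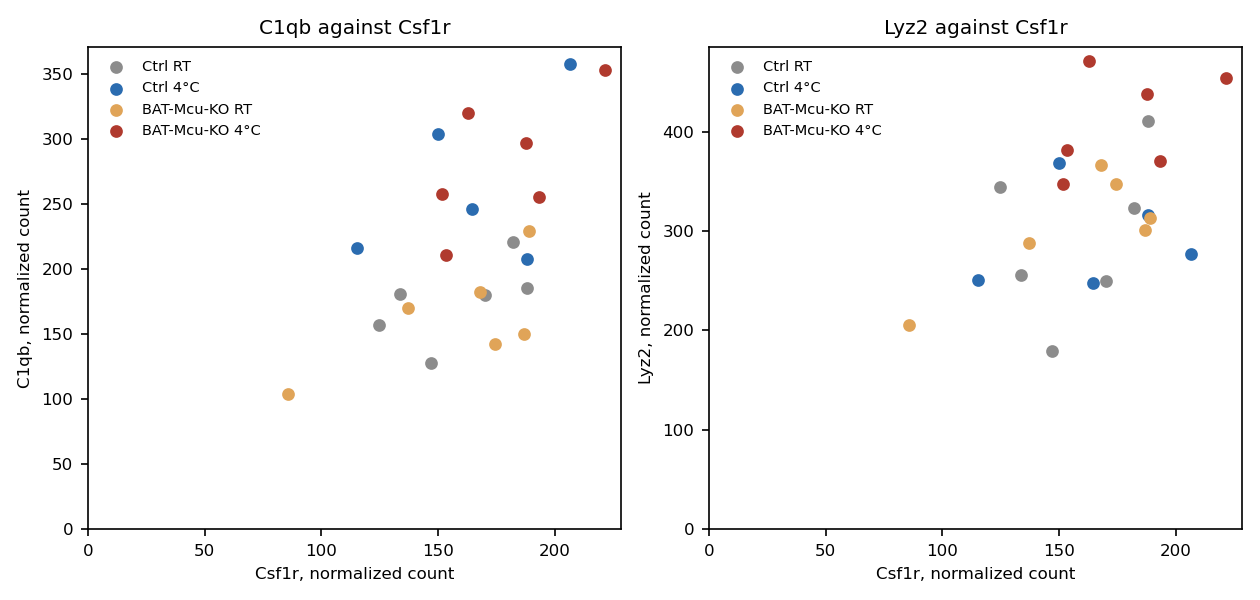
Normalized counts of C1qb (left) and Lyz2 (right) against those of Csf1r (horizontal axes), 1 point per mouse, coloured by group. The ratio of C1qb to Csf1r has a geometric mean of 1.11 in RT controls and 1.61 in cold controls.

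Cd68, the endolysosomal glycoprotein, was called higher by cold in knockouts and not in controls. Its normalized count was 24.9 to 48.6 (median 34.3) in RT controls and 80.9, 31.9, 42.3, 48.5 and 73.8 in cold controls, with 2 of 5 above every RT control. It was 13.3 to 40.3 (median 35.2) in RT knockouts and 25.6 to 117 (median 57.2) in cold knockouts, with 4 of 6 above all at RT. The change was 0.56 (-0.12 to 1.25, adjusted p = 0.174, limma) in controls and 0.83 (0.18 to 1.49, adjusted p = 0.0364, limma) in knockouts. The call in knockouts was lost in 5 of the 12 fits that left out 1 of these mice (numbers 2 and 5 at RT, and 1, 4 and 6 at 4°C), with changes of 0.60 to 1.05 and adjusted p up to 0.117 in limma.

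Lyz2, the lysozyme of macrophages and other myeloid cells, was 179 to 410.2 (median 289) in RT controls and 277, 316, 248, 250.5 and 369 in cold controls, all within the RT range. It was 205 to 366 (median 307) in RT knockouts and 347 to 471 (median 409.9) in cold knockouts, of which 5 of 6 stood above all at RT. The change was 0.025 (-0.32 to 0.37, adjusted p = 0.916, limma) in controls, with a sign that turned under other scalings, and 0.45 (0.12 to 0.78, adjusted p = 0.0266, limma) in knockouts. Without knockout mouse 2 at RT, or mouse 1 or 6 at 4°C, the call in knockouts was lost (changes of 0.34 to 0.51 over the 12 fits, adjusted p up to 0.0872, limma).

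Mrc1, the mannose receptor of resident macrophages, was 81.4 to 160.0 (median 111) in RT controls and 178, 105, 111, 88.2 and 181 in cold controls. It was 71.2 to 141 (median 114) in RT knockouts and 132 to 288 (median 153) in cold knockouts, where mouse 6 stood far above the others. In the cold, 2 of 5 controls and 5 of 6 knockouts were above every RT mouse of their genotype. The change was 0.17 (-0.29 to 0.62, adjusted p = 0.563, limma) in controls and 0.62 (0.18 to 1.05, adjusted p = 0.0197, limma) in knockouts, and the latter call was lost without mouse 2 at RT or mouse 6 at 4°C (changes of 0.46 to 0.69, adjusted p up to 0.0684, limma).

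Cd14 and Itgam did not pass the test. Cd14 (chr18:36725067-36726798) was 67.9 to 104 (median 95.8) in RT controls and 134, 50.1, 46.0, 62.4 and 83.4 in cold controls, so that 3 of 5 cold mice lay below every RT mouse and 1, mouse 1, above them all. Its change was -0.36 (-0.92 to 0.20, adjusted p = 0.293, limma) in controls and 0.0079 (-0.53 to 0.54, adjusted p = 0.983, limma) in knockouts, in which RT levels spanned 42.3 to 153 and cold levels 65.8 to 133. Itgam went from a mean of 12.2 ± 6.25 (SD, n = 6) to 18.9 ± 12.7 (SD, n = 5) in controls and from 17.2 ± 8.04 (SD, n = 6) to 31.4 ± 15.8 (SD, n = 6) in knockouts. Its changes of 0.61 (-0.31 to 1.53, adjusted p = 0.276, limma) and 0.84 (-0.034 to 1.71, adjusted p = 0.114, limma) were as large as those of the C1q genes but with wider intervals.

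In all, cold called 3 of the 9 markers higher and 0 lower in controls, where 46% of all genes were called, 22.3% higher and 23.7% lower. In knockouts it called 5 of 9 higher and 0 lower, where 43.3% of all genes were called, 21.4% higher and 21.9% lower. The share called higher was thus 33.3% of the markers in controls and 55.6% in knockouts. The count in controls is near the background. The count in knockouts fell to 2 without mouse 2 at RT or mouse 6 at 4°C and to 3 without mouse 1 at 4°C, and C1qa and C1qb were called in all 12 fits that left out 1 mouse. In controls the count was 2 or 3 when 1 mouse was left out, with C1qa and C1qb called in all 11 fits. Estimates were above 0 for 8 of 9 markers in controls and 9 of 9 in knockouts (Lyz2 and Csf1r in controls and Cd14 in knockouts turned below 0 under another scaling), against 7141 and 7087 of 14651 genes, and the median change of the markers was 0.56 and 0.62 against -0.022 and -0.023 for all genes. The C1q changes in controls stood at the 81.4 to 84.4 percentiles of all changes, and Ucp1 changed by 1.37.

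**Figure D3:**
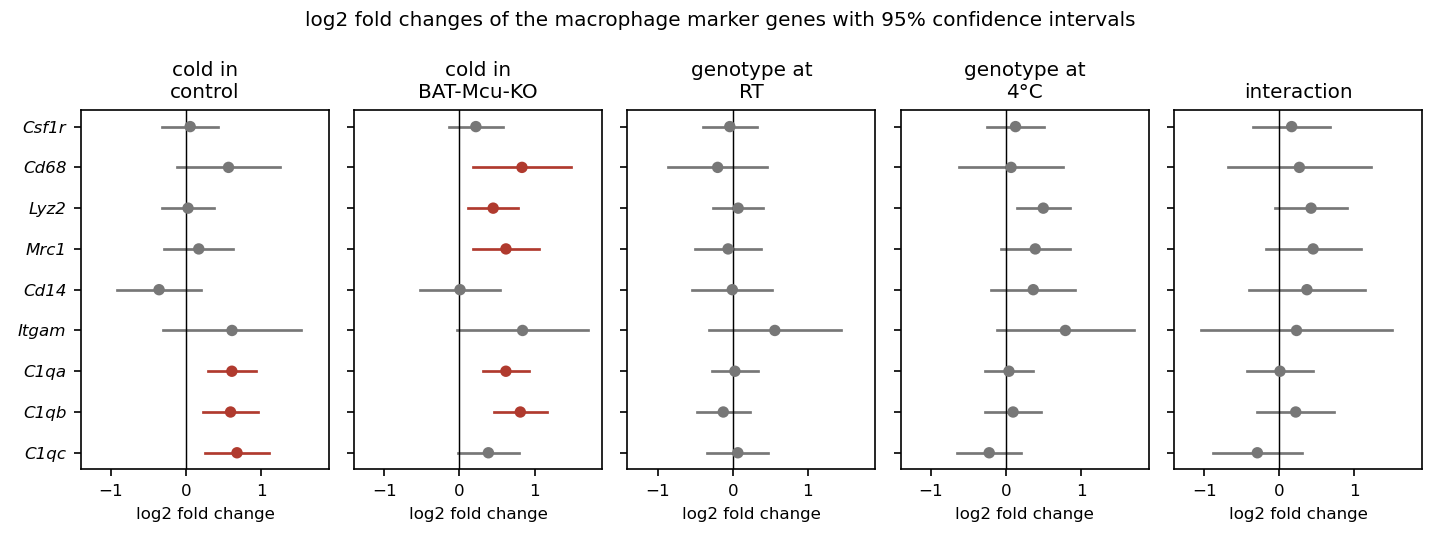
log2 fold changes (horizontal axes) of the 9 markers for cold in each genotype, genotype at each temperature and their interaction. Points are limma estimates, lines are 95% confidence intervals, and red marks an adjusted p under 0.05. Red points appear for C1qa, C1qb and C1qc in controls and for Cd68, Lyz2, Mrc1, C1qa and C1qb in knockouts.

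Genotype was the next comparison. At RT no marker was called between knockouts and controls, where 0.0478% of all genes were called and 5.15% had an unadjusted p under 0.05, as did 0 of the 9 markers, and DESeq2 and edgeR called no marker either. Csf1r, for example, was 158 ± 26.3 (SD, n = 6) in controls and 157 ± 39.5 (SD, n = 6) in knockouts. The interval of its difference was -0.39 to 0.32, and those of C1qa and Lyz2 were -0.28 to 0.34 and -0.26 to 0.41. Itgam had the largest estimate at 0.56 (-0.31 to 1.44, adjusted p = 0.983, limma). For the rest the estimates lay between -0.20 for Cd68 and 0.073 for Lyz2, with adjusted p of 0.997 and 0.999 (limma).

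At 4°C no marker was called by genotype in limma, DESeq2 or edgeR, where limma called 0.0751% of all genes. Lyz2 came nearest: 5 of 6 cold knockouts stood above all 5 cold controls, and the difference was 0.50 (0.15 to 0.85), with an unadjusted p of 0.00707 and an adjusted p of 0.531 (limma). It was the only marker with an unadjusted p under 0.05, against 6.98% of all genes. Itgam differed by 0.79 (-0.13 to 1.71, adjusted p = 0.762, limma) and Mrc1 by 0.39 (-0.067 to 0.85, adjusted p = 0.767, limma). No C1q gene passed, with differences of 0.040 (-0.28 to 0.36) for C1qa, 0.094 (-0.27 to 0.46) for C1qb and -0.22 (-0.65 to 0.21) for C1qc. Whether the response to cold differed between the genotypes was tested by the interaction, which called 0 of 9 markers and 0% of all genes in limma, with 5.99% of genes and 0 markers at an unadjusted p under 0.05, and called no marker in DESeq2 or edgeR. The largest interaction was that of Mrc1 at 0.45 (-0.18 to 1.08, adjusted p = 0.869, limma), followed by Lyz2 at 0.42 (-0.058 to 0.91, adjusted p = 0.850, limma). The calls of Cd68, Lyz2 and Mrc1 by cold in knockouts and not in controls are therefore no tested difference between the genotypes.

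Between mice of the same temperature most pairs of markers correlated above 0, and no pair passed the test. Over the 36 pairs of markers, Pearson's r of log2 levels had a median of 0.48 across the 12 mice at RT (range -0.26 to 0.79, 33 pairs above 0) and of 0.52 across the 11 mice at 4°C (-0.11 to 0.79, 34 pairs above 0). For comparison, the median r of a marker with all other genes lay between -0.0083 and 0.030. No pair passed the permutation test (100000 permutations, two-sided) after adjustment over the 72 correlations, the smallest adjusted p being 0.0822, and 12 pairs at each temperature had an unadjusted p under 0.05. With the genotype means removed the medians were 0.52 at both temperatures. They were 0.33 and 0.41 when each pair was taken without its 2 outermost mice. These are the 2 farthest from the median of the pair's first marker, in the order of the opening list. They differ from pair to pair and are not chosen by the second marker. At RT the median was 0.30 without knockout mouse 2, and it was 0.23 within the 6 controls and 0.74 within the 6 knockouts, a difference that was not tested. At 4°C it was 0.48 within the 6 knockouts, and 5 controls are too few.

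The tightest pairs held C1qb. C1qa and C1qb, neighbours in the cluster on chromosome 4, correlated at 4°C with r = 0.79 (permutation p = 0.00362, adjusted 0.0822) and Spearman's rho = 0.85 (permutation p = 0.00167), with r = 0.91 without the 2 outermost mice. At RT the pair had r = 0.70 (permutation p = 0.0107, adjusted 0.0831) and Spearman's rho = 0.71 (permutation p = 0.0116), with r = 0.46 without the 2 outermost mice. Cd68 and C1qb had r = 0.79 (permutation p = 0.00283, adjusted 0.0822) and Spearman's rho = 0.69 (permutation p = 0.0169), with r = 0.87 without the 2 outermost mice at RT, and r = 0.76 (permutation p = 0.00827, adjusted 0.0822) and Spearman's rho = 0.80 (permutation p = 0.00418), with r = 0.70 without the 2 outermost mice at 4°C. With the C1q genes at RT, Csf1r had r between 0.69 and 0.70 (adjusted permutation p between 0.0822 and 0.0831), which was 0.34 to 0.58 without the 2 outermost mice. At 4°C its r was 0.47 with C1qa, 0.55 with C1qb and 0.033 with C1qc. Without the 2 outermost mice these were -0.13, 0.24 and -0.32. Cd14 had the lowest median r with the other markers at RT (0.12, range -0.26 to 0.42), and had r between 0.28 and 0.73 at 4°C. Mrc1 came next at RT, with a median of 0.32 and a similar range (-0.14 to 0.44). The correlation of Lyz2 with Itgam at RT, r = 0.74 (permutation p = 0.00558), fell to 0.21 without the 2 outermost mice and rests on them. Differences between temperatures in these correlations were not tested.

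**Figure D4:**
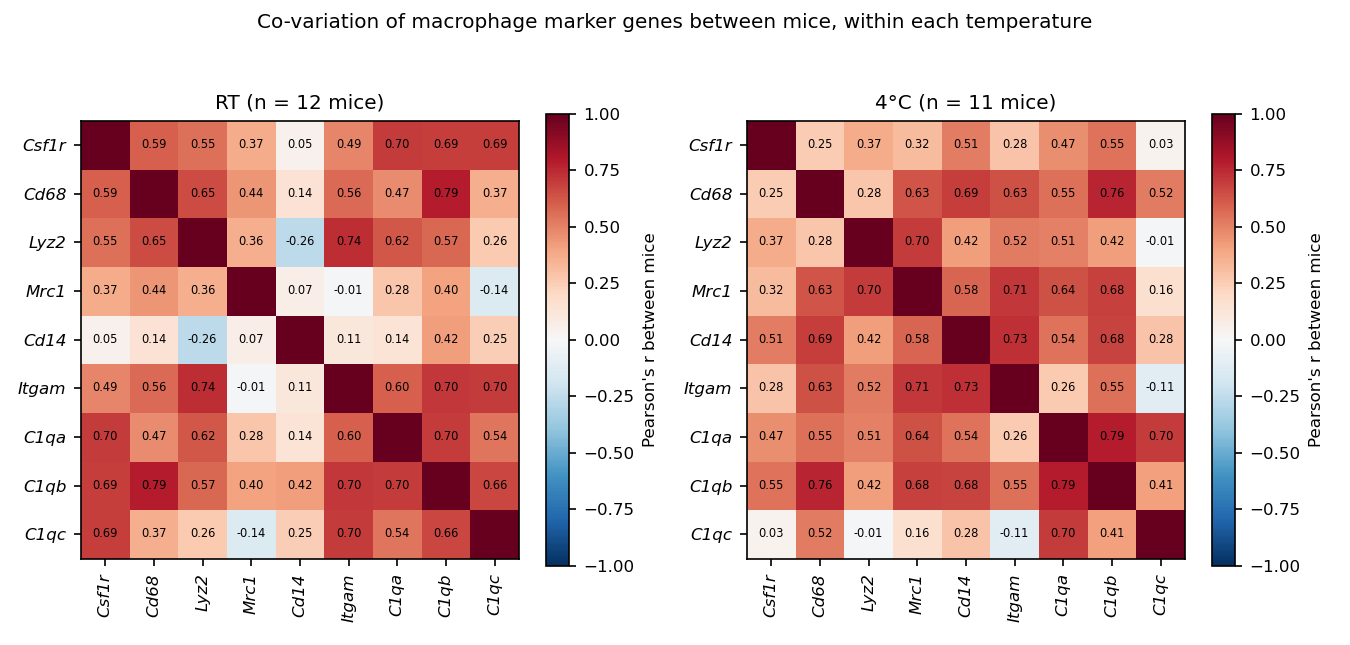
Pearson's r between mice of the log2 levels of each pair of markers at RT (left, 12 mice) and 4°C (right, 11 mice), printed in each square and coloured from -1 (blue) to 1 (red). Most squares are red, with medians of 0.48 and 0.52, and the rows of Cd14 and, less so, Mrc1 are the palest at RT.

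Some mice lay to the same side of their group for most markers. Knockout mouse 2 at RT lay below its group mean for 9 of 9 markers, with the lowest Csf1r (85.7) and Cd68 (13.3) of all 23 mice, and had 11088466 reads, the fewest of its group. Knockout mouse 4 at RT lay above its group mean for 9 of 9 markers. At 4°C, knockout mouse 3, the library of that group with the fewest reads (8336445), lay above its group mean for 0 of 9, and control mice 1 and 5 lay above theirs for 7 of 9 each. Of these, control mouse 1 had 7129271 reads, the fewest of all 23 mice. Over all mice of a temperature, log2 Csf1r correlated with log2 depth at r = 0.23 at RT (permutation p = 0.454) and -0.19 at 4°C (permutation p = 0.585), with Spearman's rho of 0.26 and -0.18.

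Csf1r was also set against summed levels of 10 lists of markers for other cells of brown fat (brown adipocytes, endothelium, fibroblasts, muscle, erythroid cells, mast cells, neutrophils, dendritic cells, T and NK cells and B cells). Of 22 correlations with these lists and depth, none passed after adjustment, the smallest adjusted p being 0.368. The 2 outermost mice are here those farthest from the median of the summed list. The highest r at 4°C was 0.66 with erythroid markers (permutation p = 0.0271, rho = 0.75, r = 0.56 without the 2 outermost mice), where the same r at RT was -0.16. With fibroblast markers r was 0.56 at RT (permutation p = 0.0572), which fell to 0.23 without the 2 outermost mice, and 0.058 at 4°C. With brown adipocyte markers it was -0.14 at RT and 0.54 at 4°C (permutation p = 0.0833, rho = 0.29), and the latter rests on 2 mice, since it was 0.0015 without them.

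Across all genes, the transcripts most like the 9 markers as a set were ranked by Pearson's r with their mean standardized deviation from the 4 group means over 23 mice, as a description without a test. The 10 highest were Ccl9 (0.87), Ccl6 (0.86), Il1r2 (0.81), Rcn2 (0.78), Nat2 (0.77), Tyrobp (0.75), Folr2 (0.74), Procr (0.74), Laptm5 (0.73) and Ecm1 (0.73). Tyrobp, Laptm5 and Folr2 are on the lists of macrophage genes described below. Ctss followed in rank 11 of 14642 (0.73), while Adgre1 was in rank 1929 (0.30), Spi1, which encodes PU.1, in rank 1222 (0.36), and Ucp1 in rank 1233 (0.36).

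By single marker, the 5 transcripts with the highest r over the 23 mice were Il1r2 (0.76), C1qb (0.75), Ccl9 (0.74), Mybbp1a (0.71), 2310011J03Rik (0.71) for C1qa and Dapp1 (0.79), Ccl6 (0.79), Ccl9 (0.78), Nat2 (0.76), Folr2 (0.76) for C1qb. For C1qa, C1qb was thus second in rank, and Ccl9 was on both lists. For C1qc they were Sh3bp1 (0.74), Psmb10 (0.71), Rqcd1 (0.71), Phgdh (0.70), Pik3cd (0.68). For Csf1r they were Gm16751 (0.79), Cenpw (0.78), Ccl9 (0.77), Fcna (0.75), Slc22a4 (0.74), and for Cd68 Msn (0.80), Dpep2 (0.80), Medag (0.80), Ctsk (0.77), Pcolce (0.76). Lyz2 was most like Pcolce2 (0.85), Procr (0.79), Ecm1 (0.77), Col14a1 (0.77), Gm18588 (0.76), and Mrc1 most like Nol6 (0.70), Lrrk1 (0.69), Ccl6 (0.69), Fn1 (0.69), H2-T10 (0.69). For Cd14 the list was Tcp11l2 (0.79), Sra1 (0.79), Msrb3 (0.78), Arid5b (0.78), Steap4 (0.76), and for Itgam it was Rab3il1 (0.78), Gorab (0.77), Rpl15 (0.76), Mfap5 (0.76), Tubb5 (0.73). Apart from C1qb on the list of C1qa, none of these was a marker. Gm16751, Cenpw, Dapp1, Dpep2, Sh3bp1 and H2-T10 had mean normalized counts of 7.47 to 11.5, where few reads limit the ranking.

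Among other macrophage transcripts, called genes lay on both sides of 0. The counts of this list and of those below stand against 22.3% higher and 23.7% lower among all genes in controls and 21.4% and 21.9% in knockouts, and no list was tested against them. Of the 15 measured in the list of macrophage genes in general, 4 were higher and 2 lower in each genotype, with a median change of 0.12 in controls and 0.25 in knockouts. Ncf1, a subunit of the phagocyte NADPH oxidase, changed by 1.22 and 1.42 (adjusted p = 0.0403 and 0.0142, limma). Cybb, the catalytic subunit of the same oxidase, changed by -1.06 and -1.20 (adjusted p = 0.00605 and 0.00163, limma). Unc93b1, which carries endosomal Toll-like receptors, was lower (-1.03 and -0.82, adjusted p = 1.42e-07 and 2.38e-06, limma), and the Fc receptor Fcgr3 was higher (0.68 and 1.09, adjusted p = 0.0190 and 3.00e-04, limma). Adgre1, like Csf1r, was not called, at 0.020 (adjusted p = 0.951, limma) and 0.057 (adjusted p = 0.853, limma).

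Of 14 measured genes of resident tissue macrophages, 3 were higher and 2 lower in controls and 4 higher and 2 lower in knockouts. Lyve1, the hyaluronan receptor that lymphatic endothelium also carries, changed by 1.82 and 1.17 (adjusted p = 4.58e-04 and 0.0128, limma). Cd163, the haemoglobin scavenger receptor, changed by 1.17 and 0.90 (adjusted p = 2.43e-04 and 0.00227, limma). The lectin Cd209f was lower, at -1.44 and -1.25 (adjusted p = 0.00755 and 0.0151, limma). Of 8 measured genes of lipid-associated macrophages, 2 were higher and 1 lower in controls and 3 higher and 1 lower in knockouts, led by Gpnmb (1.84 and 2.04) and Lgals3 (1.77 and 1.69), and the fatty acid carrier Fabp5 was lower (-0.75 and -0.60). The normalized counts of these 8 genes summed to 36607 to 54008 per mouse, against 875 to 1317 for the 15 macrophage genes in general. Which cells of the tissue this RNA came from was not tested. Of 6 measured genes of monocytes and recruited cells, 3 were higher and 0 lower in each genotype. They included Nr4a1 (4.25 and 3.69), an early response gene of many cell types, and Vcan (1.63 and 1.09), a matrix proteoglycan. Of 17 genes of inflammatory activation 3 were measured, at a summed normalized count of only 26.3 to 120 per mouse. Of these 3, 0 were called higher and 1 lower in controls and 0 higher and 2 lower in knockouts. Cxcl10 was lower in both (-1.91 and -2.35), Nos2 was lower in knockouts (-0.90, against -0.50 in controls) and Socs3 was not called (0.81 and 0.53), and Tnf, Il1b, Il6 and Ccl2 were among those not analysed here. Of 4 measured genes of alternative activation, the receptor Il4ra was higher (1.15 and 1.08) and Mgl2 lower in controls (-0.94). Mgl2 was not called in knockouts, and the interaction called 0 of these 4 genes.

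**Figure D5:**
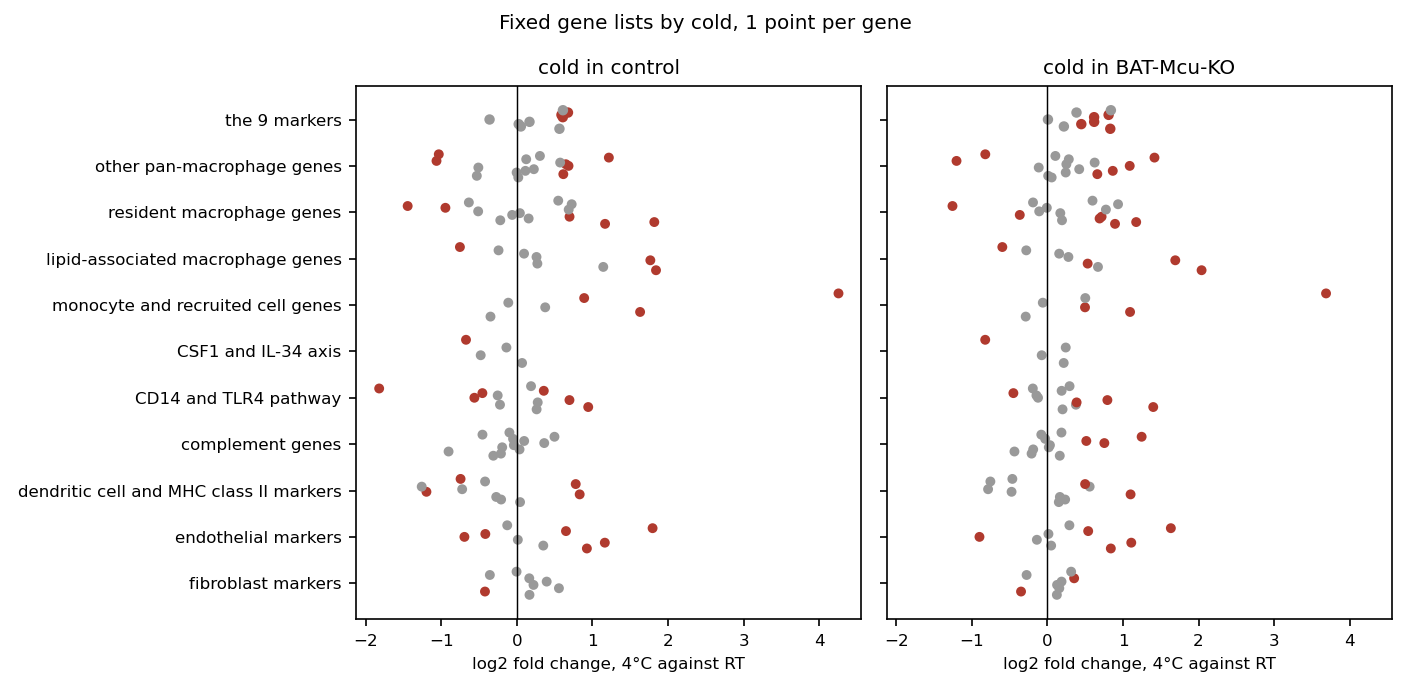
log2 fold change by cold (horizontal axis) of each gene of the 9 markers and of 10 other lists, in controls (left) and knockouts (right). Each point is a gene and red marks an adjusted p under 0.05. The called markers lie above 0, whereas the general, resident and lipid-associated macrophage lists hold called genes on both sides of 0. Called genes of the list of monocytes and recruited cells lie above 0, and its gene Nr4a1 is the rightmost point.

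The partners of the markers came next. Of the ligands of CSF1R, Csf1 changed by 0.070 (adjusted p = 0.827, limma) and 0.22 (adjusted p = 0.451, limma) and Il34 by -0.48 (adjusted p = 0.0827, limma) and -0.075 (adjusted p = 0.807, limma), none of which passed. In the same list Csf2rb, the shared beta chain of the GM-CSF receptor, was lower in both genotypes (-0.67 and -0.82, adjusted p = 0.0495 and 0.0137, limma), and its alpha chain Csf2ra was not called (-0.14 and 0.24). Of 11 measured genes of the CD14 and TLR4 pathway, 3 were higher and 3 lower in controls and 3 higher and 1 lower in knockouts. Ly96, which encodes the TLR4 partner MD-2, was higher (0.94 and 1.40), as was the adaptor Ticam1 (0.70 and 0.79), and the kinase Irak4 was lower (-0.46 and -0.45). Tlr2 was lower in controls (-1.82, adjusted p = 0.00535, limma) and was not called in knockouts, and the interaction called 0 genes of this list.

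Of 12 other complement genes, limma called 0 in controls, as did DESeq2 and edgeR (1 of them, Cd55, had an unadjusted p under 0.05), and 3 were called higher in knockouts. These were C5ar1, the C5a receptor of myeloid cells (1.25, adjusted p = 0.00304, limma), Cfp, which encodes properdin (0.75, adjusted p = 0.00505, limma), and Serping1, which encodes the C1 inhibitor (0.52, adjusted p = 0.00353, limma). Of the integrin partners of Itgam, the beta chain Itgb2 was not called (0.027 and 0.34), and the ligands Icam1 (1.69 and 1.56) and Icam2 (0.68 and 0.83), which endothelium carries, were higher. Around Cd68, the 14 genes of lysosomes split into 5 higher and 5 lower in controls and 6 higher and 4 lower in knockouts, with Lamp1 (1.44 and 1.08) and Lamp2 (1.13 and 1.06) higher and the galactosidase Glb1 (-0.99 and -0.86) lower. Of the 152 measured genes of the other lists, limma, DESeq2 and edgeR called 0 by genotype at either temperature and 0 in the interaction. DESeq2 gave some of these genes no adjusted p for genotype at 4°C and for the interaction, so it did not test all 152 there. In limma 11, 11 and 12 of the 152 genes had an unadjusted p under 0.05 for genotype at RT, genotype at 4°C and the interaction. Over all genes the shares were 5.15, 6.98 and 5.99%, and the lists were not tested against them.

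Markers of other cells of the tissue moved in part with cold. The summed normalized count of 9 endothelial markers was 4918 to 6287 in RT controls, 7653 to 12720.4 in cold controls, 5149 to 6572 in RT knockouts and 7177 to 11543 in cold knockouts, and 4 of the 9 were called higher in each genotype, 2 lower in controls and 1 lower in knockouts, led by Cldn5 (1.80 and 1.63). The sum of 10 markers of dendritic cells and MHC class II was 1932 to 2940.2, 2273 to 3029, 1729 to 2832 and 2359 to 3177 in the same order, with 2 called higher in each genotype (H2-Eb1 at 0.83 and 1.10, and Zbtb46 at 0.78 and 0.50) and 2 lower in controls. The median change of these 10 genes was -0.35 in controls, with 3 estimates above 0, and 0.16 in knockouts, with 6 above 0. The sum of 8 fibroblast markers was 4953 to 8597, 5342 to 9818, 4606 to 8376 and 5250.3 to 9700.2. That of 9 skeletal muscle markers ran from 6.22 to 44641 over all mice. In limma 0 of them were called and 0 had an unadjusted p under 0.05, whereas edgeR called 3 higher in controls (Pvalb, Tnnc2 and Myh2) and DESeq2 and edgeR called 2 lower in knockouts (Myh1 and Myh2). Neutrophil markers were near 0, with only S100a8 and Mmp9 of 11 measured and a sum of 6.58 to 65.3. The 2 measured of 13 T and NK cell markers summed to 5.42 to 63.2 per mouse. The 2 measured of 9 B cell markers summed to 22.5 to 217, and few reads limit the changes of these lists. Cd247 (-2.12 and -1.93) and Ighm (-1.20 and -1.73) were lower in both genotypes, Cd79a was lower in knockouts (-1.91, against -0.77 in controls) and Il2rb was not called (0.74 and 0.13). Of 6 measured mast cell markers 2 were higher and 1, Kit (-2.84 and -1.98), lower in controls, and 3 were higher and 1 lower in knockouts. The sum of 5 erythroid markers was 2966 to 6952 in RT controls and 2561 to 5839.7 in cold controls, 1885 to 5442 in RT knockouts and 2829.9 to 4794 in cold knockouts, with 0 called in limma, DESeq2 or edgeR and 0 at an unadjusted p under 0.05, and of 10 brown adipocyte markers 4 were higher and 5 lower in controls and 3 higher and 3 lower in knockouts. The part of any of these in the changes of the macrophage markers was not tested.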

How the data were processed

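BAT of 23 mice, 1 library per mouse, was profiled by paired-end RNA sequencing. Per the labels and the study's methods, alignment was to mm10 with STAR 2.4.0j and counting per gene with HTSeq, irrespective of strand. The authors deposited a signal per gene and mouse, namely reads scaled by the size factor that DESeq2 gives the library. Dividing by the step of a library gave whole reads for 100% of values (tolerance 0.01), and each of the 14651 genes had at least 8 reads in at least 6 samples. A second deposited table holds the authors' fold changes and p-values and was not used. Left out were 0 columns of samples. Read numbers give counting error only.

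Log2(normalized count + 1) was fitted with limma 3.58.1 (R 4.3.3), with 1 mean for each of the 4 groups over all 23 samples and a variance trend, and p-values were adjusted by the Benjamini-Hochberg method over all genes, with a threshold of 0.05. Correlations used 100000 permutations. Alternatives were pseudocounts of 0.5 and 10, a mean count of 50 or more, 8 or more in every sample, quantile, upper quartile and TMM scaling, no trend, only the compared groups, a replicate block, each mouse left out, and DESeq2 1.42.0 and edgeR 4.0.16 on the recovered reads. These called 3 (DESeq2) and 3 (edgeR) markers by cold in controls and 5 and 5 in BAT-Mcu-KO mice. Over all genes, the alternatives that kept every mouse called 5422 to 6925 by cold in controls and 5070 to 6618 in BAT-Mcu-KO mice. The marker counts were not tested against this background. The code was tested on simulated data. Positions and exon lengths are those of GENCODE M21 (GRCm38).

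The markers, gene lists and tests were chosen with earlier results of these data known. The text names the 9 markers, genes among the 3 called of each list with the largest changes by cold in each genotype, the CSF1 and IL-34 genes and the genes most like the markers. Adgre1, Itgb2, Cd55, Ctss, Spi1, Socs3, Il2rb and the muscle genes were named after their values were seen. Of the gene lists, 2 genes were left out and are not reported here. Counts of the 55 pairs of libraries within a group differed by more than sampling noise.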

Additional observations from a re-analysis of the deposited data

Results flagged for a closer look

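Each of the 9 markers was searched in each of the 4 groups for a mouse far from the rest, by the gap to its nearest neighbour as a share of the range of the group (Dixon's criterion at 95%). Of these 36 sets of values 3 stood out, where chance gives about 1 in 20. Cd68 in BAT-Mcu-KO mouse 2 at RT was 13.3, with a gap of 0.643 of the range against a critical 0.625. This mouse was below its group mean for 9 of 9 markers. Mrc1 in BAT-Mcu-KO mouse 6 at 4°C was 288, with a gap of 0.830 against 0.625. C1qc in control mouse 5 at 4°C was 149.9, with a gap of 0.819 against 0.71.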

How the results depend on the processing

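Under 9 to 12 alternatives, and with each mouse left out, C1qa and C1qb were called higher by cold in both genotypes in every fit, and no marker was called by genotype or interaction in any. With 1 mouse left out the number of markers called by cold was 2 to 3 in controls and 2 to 5 in BAT-Mcu-KO mice, and 0 to 0 for genotype and the interaction. Lyz2 by cold in BAT-Mcu-KO mice was 0.39 with an adjusted p of 0.0559 under quantile normalization, Cd68 was 0.83 with 0.0673 in a limma fit of only the compared groups, and C1qc was 0.51 with 0.0366 under quantile normalization. Upper quartile scaling moved the median change of all genes by cold in controls to -0.13. Uncalled estimates near 0 changed sign. Lyz2 by cold in controls was -0.064 under quantile normalization, -0.083 under upper quartile scaling, -0.0080 in DESeq2 and -0.010 in edgeR, and Csf1r was -0.055 under upper quartile scaling. Cd14 by cold in BAT-Mcu-KO mice was -0.043, -0.037 and -0.039 under upper quartile scaling, DESeq2 and edgeR, and by genotype at RT 0.0037, 0.081 and 0.080 with a pseudocount of 10, DESeq2 and edgeR. C1qa in the interaction was -0.018 in DESeq2 and -0.020 in edgeR. The cause of these turns was not tested. With 1 mouse left out, signs turned within -0.038 to 0.12 (C1qa), -0.16 to 0.21 (Cd14), -0.30 to 0.028 (Cd68), -0.10 to 0.12 (Csf1r), -0.059 to 0.18 (Lyz2) and -0.15 to 0.058 (Mrc1) by genotype at RT, -0.059 to 0.16 (C1qa), -0.32 to 0.00067 (C1qc) and -0.15 to 0.28 (Cd68) by genotype at 4°C, -0.089 to 0.13 (C1qa) and -0.027 to 0.61 (Itgam) in the interaction, -0.034 to 0.17 (Csf1r) and -0.11 to 0.13 (Lyz2) by cold in controls and -0.20 to 0.16 (Cd14) by cold in BAT-Mcu-KO mice. Over all genes limma called 7 by genotype at RT, DESeq2 20 and a limma fit of only the compared groups 3. At 4°C the counts were 11 in limma, 23 in DESeq2, 6 in edgeR, 7 without the trend, 7 with the block and 2 with only the compared groups, and DESeq2 called 28 genes in the interaction against 0.

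Replicate numbers join different animals, whose deviations from the group means correlated at a mean r of -0.095 to 0.12 per comparison. The mean was above the set limit of 0.1 only for genotype at 4°C (0.12, with 0.042 to 0.22 over 5 pairs). The main fit did not take the numbers as pairs in any comparison. A fit with the replicate block called 3, 5, 0, 0 and 0 markers, as without it, and turned Cd68 by genotype at 4°C to -0.022 and C1qa in the interaction to -0.0035. Of the correlations between markers, 1 pair at RT (C1qb and Itgam) passed with the genotype means removed. Leaving out 1 mouse at a time, an alternative chosen after seeing the data, gave 0 to 1 passing pairs at each temperature (1 without control mouse 1 at RT and 1 without control mouse 5 at 4°C). Itgam, at 2 to 74 reads, was limited most by depth.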
